A study of Caenorhabditis elegans with 4 samples.

Results

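The chromosome V centre held 899 of the 4277 peaks (21.0%) in the combined peak list of JUN-1 tagged with GFP in Caenorhabditis elegans L1 larvae, the first larval stage. A peak belonged to the V centre when the midpoint of its start and end lay from 6000000 to 16500000 on chromosome V of genome build WS180, and no measured strength entered this choice. The same window held 518 of 2370 peaks (21.9%) of ChIP replicate 1 and 897 of 4272 peaks (21.0%) of ChIP replicate 2. The remainder of chromosome V held 501 combined peaks, X held 773, and chromosomes I to IV held 2104.

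Chromatin immunoprecipitation with sequencing (ChIP-seq) recovers DNA fixed to a protein, here with a goat polyclonal antibody against GFP. The samples were ChIP replicates 1 and 2 and input replicates 1 and 2, where input is fixed chromatin set aside before precipitation. All 4 libraries came from hermaphrodites of strain OP234, which carries the unc119(ed3) allele and the transgene wgIs234. The labels describe wgIs234 as T24H10.7 tagged with TY1, EGFP and FLAG together with unc119, introduced by bombardment and outcrossed 3 times. The genotype lists no change in the worm's own jun-1 gene and the labels name no promoter for the transgene. Worms were whole L1 larvae grown at 20 °C per the labels' protocols, although the stage label also carries the entry 26dC, and all their cell types were mixed. Fixation used 2% formaldehyde and quenching 100 mM Tris, and 10% of the chromatin was kept as input. Whether the replicates were grown as separate cultures is not stated by the labels. No peak list of the inputs was used here, so no background level is set beside the values below.

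JUN-1 is the C. elegans counterpart of c-Jun, a leucine zipper protein that binds DNA as a dimer, in mammals typically with a FOS partner as the AP-1 complex. In C. elegans, autosome arms recombine more and hold more repeats than the centres, where many conserved and widely expressed genes lie. Chromosome V is known for large families of chemoreceptor and nuclear hormone receptor genes. Many GFP-tagged worm factors share crowded binding regions near gene starts, so a peak alone does not show a site particular to 1 factor. Genes, exons and introns are not given for the peaks, because the gene table at hand belongs to another build.

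Peak strength is given as the authors' q-value or its -log10, where a smaller q (larger -log10 q) is a stronger call. It grows with sequencing depth, which is unknown here, as well as with enrichment. With 2 replicates and no read counts, no test was made. Values are described beside the rest of the list, with exact 95% intervals that treat peaks as independent and cover counting error only.

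Combined peaks lay at 85.6 per Mb in the V centre (95% exact Poisson interval 80.1 to 91.4). On the remainder of V the density was 48.2 per Mb (44.1 to 52.6), with 56.2 before the window and 37.3 after it. The ratio of these densities was 1.78. The 2 intervals do not overlap, but they treat peaks as independent. Since 74.5% of V centre peaks stood in groups with gaps under 5000 bp, the intervals are likely too narrow, and the difference was not tested. X held 45.1 peaks per Mb, chromosomes I to IV 34.3, and the whole list 43.0 (41.7 to 44.3).

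The central 50% of each other chromosome was less dense. It held 46.6 peaks per Mb on I, 34.2 on II, 44.5 on III, 37.7 on IV and 44.5 on X. The V centre was thus between 1.84 and 2.50 times as dense as these centres in the combined list. In replicate 1 these ratios ran from 1.87 to 2.80. There the V centre held 49.3 peaks per Mb (45.2 to 53.8), against 26.5 on the remainder of V and 23.8 over the whole list. In replicate 2 the V centre held 85.4 per Mb. The ratio to the remainder of V was 1.86 in replicate 1 and 1.79 in replicate 2, so the higher density stood in each replicate's own list.

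Peaks covered 294397 bp, or 2.80% of the V centre, against 1.63% of the remainder of V, 2.22% of X and 1.63% of chromosomes I to IV. The gap between the V centre and other regions was smaller by covered length than by number, since V centre peaks were on average narrower.

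Density varied within the window. In 21 bins of 0.5 Mb the V centre held 20 to 64 peaks with a median of 41, against 8 to 48 with a median of 21.5 in the bins of V outside it. Bins on chromosomes I to IV held 2 to 42 with a median of 17, and those on X 9 to 35 with a median of 22. The fullest V centre bins were the bin ending at 11 Mb and the bin ending at 12 Mb with 64 peaks each, followed by the first bin, 6 to 6.5 Mb, with 60. The sparsest was 7 to 7.5 Mb with 20 peaks. Beyond 14 Mb each bin held 28 to 33 peaks, fewer than the window's median but more than the median bin outside it. The window's edges therefore do not mark a step in every bin.

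**Figure D1:**
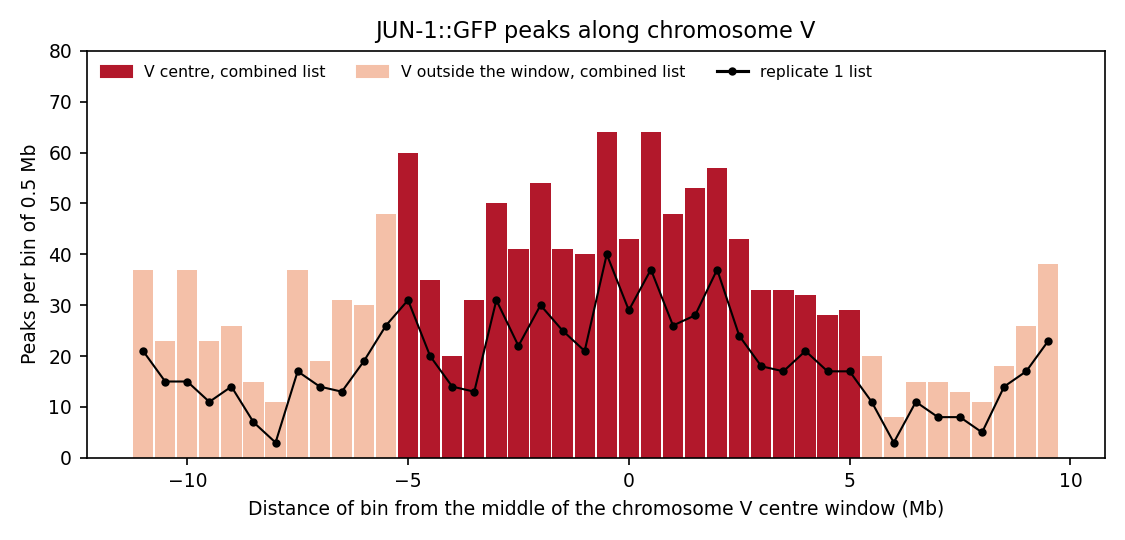
Peaks per bin of 0.5 Mb along chromosome V (y axis) against the distance of the bin from the middle of the V centre window in Mb (x axis), bars for the combined list, coloured by region, and a line for replicate 1; the last bin of the chromosome is only partly filled. V centre bins hold 20 to 64 combined peaks, against 8 to 48 in the full bins of V outside the window.

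The peaks at the borders showed no common strength. Just inside lay V:6000182-6000876, the 33rd strongest combined peak with q of 5.6e-87, and V:16499053-16499293, ranked 2026 with q of 1.3e-07. Just outside lay V:5991471-5991883, ranked 922 with q of 2.1e-13, and V:16506704-16506951, ranked 3761 with q of 0.000136.

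V centre peaks were narrow. Their median width was 280 bp (95% exact interval 266 to 289), with quartiles at 188 and 380.5 bp and a range of 1 to 3615 bp. The median was 288 bp (271 to 300) on the remainder of V, 390 bp on X, 379 bp on chromosomes I to IV and 352 bp (346 to 356) in the whole list. The intervals of the V centre and the remainder of V overlap, while that of the whole list lies above both. These differences were not tested. In replicate 1 the median was 296.5 bp (282 to 311) in the V centre, against 292 bp on the remainder of V, 410 bp on X and 383 bp on I to IV.

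The low median came with many very narrow peaks. Under 200 bp lay 262 of 899 V centre peaks (29.1%), against 22.0% on the remainder of V, 3.88% on X and 4.13% on chromosomes I to IV. Under 100 bp lay 72 (8.01%), out of 120 such peaks (2.81%) in the whole list. Under 50 bp lay 36 (4.0%), against 9 (1.80%) on the remainder of V, 3 on X and 10 on I to IV. Replicate 1 listed no peak under 50 bp anywhere, and all of its 7 peaks under 100 bp were in the V centre. Its share under 200 bp was 13.9% in the V centre, against 10.55% on the remainder of V and 4.81% in its whole list. At the other end, 52 V centre peaks (5.78%) were 700 bp or wider, against 10.99% of the whole list.

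Weaker peaks were narrower, so widths were also compared within deciles, the 10 equal parts of the list ranked by q. From the strongest to the weakest decile, the median width in the V centre was 591, 423, 349.5, 333, 277, 245.5, 205, 185, 139.5 and 142 bp. On chromosomes I to IV and X together it was 687, 491, 448, 416.5, 382, 366, 330, 320.5, 298 and 290 bp. V centre peaks had the lower median in 10 of 10 deciles, and the ratio of the medians was 0.86 in the strongest decile and 0.49 in the weakest. In deciles 1 and 2 the intervals of the medians overlapped. Against chromosomes I to IV alone the ratio was 0.94 in both of these deciles and 0.49 in the weakest. Replicate 1 likewise had the lower median in the V centre in 10 of 10 deciles against I to IV and X together. Against I to IV alone it was lower there in 9 of 10. Against the remainder of V the V centre was lower in 9 of 10 deciles of the combined list, with a median ratio of 0.95. In replicate 1 it was lower in 5 of 10, with a median ratio of 0.99. Beyond deciles 1 and 2, widths on the remainder of V were thus much closer to those of the V centre than widths on other chromosomes were.

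**Figure D2:**
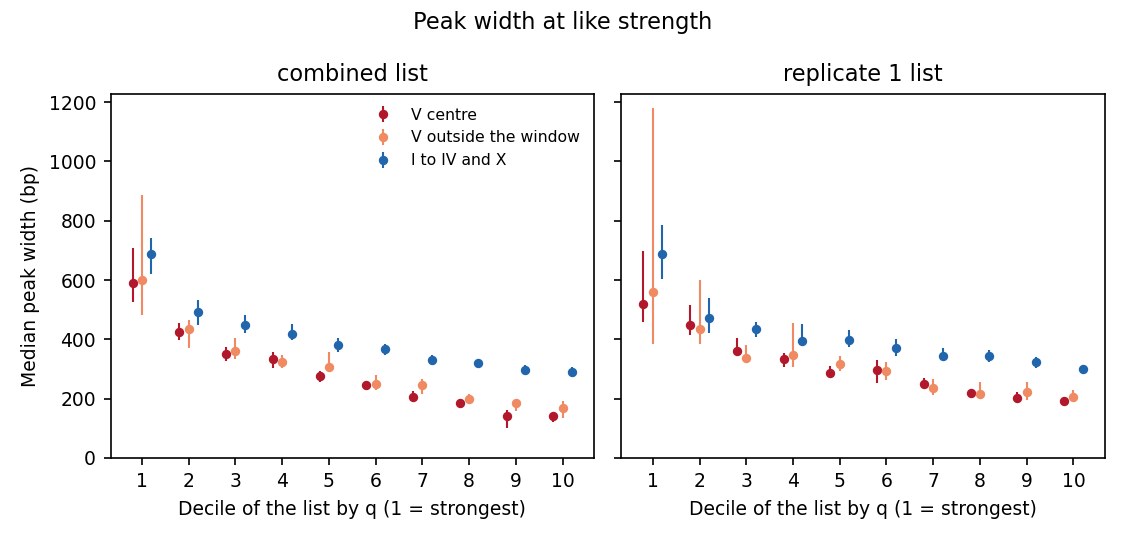
Median peak width in bp (y axis) in each decile of the list by q (x axis, 1 = strongest) for the V centre, V outside the window, and chromosomes I to IV and X together, in the combined and replicate 1 lists; bars are exact 95% intervals of the median. In the combined list V centre medians fell to 142 bp in the weakest decile, against 290 bp on the other chromosomes.

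Stronger peaks were wider in every region. Spearman's rho between width and -log10 q across peaks was 0.87 in the V centre (n = 899), 0.82 on the remainder of V (n = 501), 0.65 on X (n = 773) and 0.53 on chromosomes I to IV (n = 2104). In replicate 1 the corresponding values were 0.82 (n = 518), 0.78 (n = 275), 0.64 (n = 441) and 0.49 (n = 1136). These peaks share a library and its depth, so rho is a description and the differences were not tested.

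The narrowest V centre peaks were weak calls. Those at V:12670020, V:12990313 and V:13416094 each spanned 1 bp, with q of 0.000111, 2.0e-05 and 0.000244. The next were V:9062702-9062703 of 2 bp and V:10029317-10029320 of 4 bp. The 36 under 50 bp had -log10 q of 3.57 to 4.75 with a median of 3.86, and the strongest of them ranked 2988 in the list. Replicate 1 overlapped 1 of the 36, and replicate 2 overlapped 33. The matching shares over all 58 combined peaks under 50 bp were not computed.

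V centre peaks stood close together. The median gap from the end of 1 peak to the start of the next was 4362.5 bp (95% exact interval 3744 to 5127) over 898 gaps. It was 8640 bp on the remainder of V, 11139.5 bp on X, 14933.5 bp on chromosomes I to IV and 10250 bp over the whole list. Gaps under 1000 bp made up 20.2% in the V centre, against 13.4% on the remainder of V and 11.8% in the whole list. Gaps under 5000 bp made up 52.7% in the V centre, against 39.9% on the remainder of V and 35.1% in the whole list. In replicate 1 the median gap was 9333 bp in the V centre, against 19853.5 bp over its whole list.

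The spacing was uneven as well as short. The mean V centre gap was 11363.8 bp, and the median was 0.38 of the mean, against 0.42 on the remainder of V, 0.51 on X and 0.52 on I to IV. In replicate 1 the order within V turned, with 0.47 in the V centre, against 0.40 on the remainder of V, 0.54 on X and 0.58 on I to IV. A lower value of this ratio means that many short gaps stand beside a few long ones. The shortest gap was 203 bp, close to the 200 bp minimum of the whole list. The longest was 175702 bp, between V:7237158-7237481 and V:7413184-7413339, and lay within the sparsest bin. The next longest were 107263 bp and 107058 bp.

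**Figure D3:**
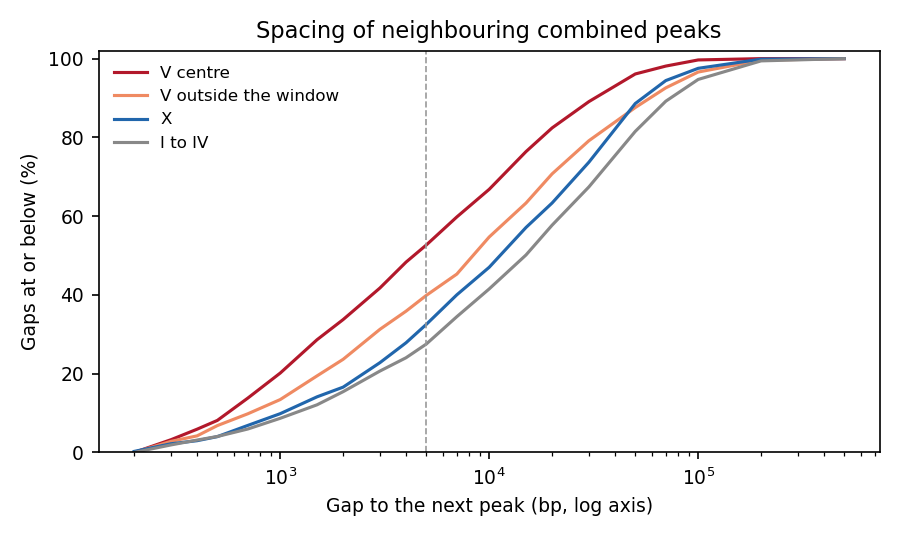
Share of gaps at or below a given length in percent (y axis) against gap length in bp (log x axis), for neighbouring combined peaks by region; the dashed line marks 5000 bp. At that line the V centre curve stands at 52.7%, against 39.9% for V outside the window, 32.5% for X and 27.5% for chromosomes I to IV.

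Joining peaks with gaps under 5000 bp gave 426 groups in the V centre, of which 229 were single peaks. The other 197 groups held 670 peaks (74.5%), against 61.7% on the remainder of V, 53.0% on X and 45.3% on chromosomes I to IV. Groups of 5 or more peaks numbered 38 in the V centre, of 73 in the whole list. Since a denser region gives more short gaps, this count restates the density in part.

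The largest group, of 14 peaks, ran from V:10708430 to V:10737030 and its peaks covered 42.3% of its 28601 bp. It held both strong and weak calls, with -log10 q of 3.42 to 78.6. Its strongest peak, V:10714256-10717870, had q of 2.3e-79 and was the widest of the V centre at 3615 bp. Beside it, after 212 bp, lay V:10711713-10714043 with q of 2.3e-52 and a width of 2331 bp. Further along lay V:10729319-10730053 with q of 3.1e-32 and V:10719100-10720198 with q of 4.3e-31. The weakest member, V:10708430-10708569, had q of 0.000376, the largest q in the V centre. Replicate 1 overlapped 9 of the 14 peaks and replicate 2 overlapped all 14.

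Other large groups were weaker. The group of 13 peaks at V:8648308-8672123 had its strongest call at -log10 q of 19.4, and replicate 1 overlapped 6 of them. The group of 11 at V:11069383-11087281 reached 53.2, with 7 overlapped by replicate 1. The group of 10 at V:6346385-6362507 reached only 11.2, with 6 overlapped by replicate 1. A large group thus did not need a very strong peak.

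V centre peaks with a near neighbour had a somewhat higher median strength, as such peaks had over the whole list. The 302 V centre peaks (33.6%) with another peak within 1000 bp had a median -log10 q of 7.54 (6.65 to 8.34) and a median width of 308 bp. The 128 (14.2%) with none within 10000 bp had 6.25 (5.38 to 7.30) and 243.5 bp. The intervals of -log10 q overlap, while those of width, 286 to 341 bp and 223 to 273 bp, do not. Over the whole list the same classes had median -log10 q of 7.25 and 6.31 and median widths of 398.5 and 342 bp. On the remainder of V the medians of -log10 q were 7.39 and 5.41.

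By strength the V centre was close to the rest of the list. Its median -log10 q was 6.86 (95% exact interval 6.44 to 7.30), against 6.67 on the remainder of V, 6.61 on X, 6.50 on chromosomes I to IV and 6.63 over the whole list. Each decile of the combined list by q held 80 to 101 V centre peaks, or 18.7% to 23.6% of the decile, around the 21.0% of the whole list. The V centre held 3 of the 25 strongest peaks, 6 of the 50 strongest, 17 of the 100 strongest and 226 of the 1000 strongest. Its higher density was therefore spread over strong and weak calls alike. Among the first 50 its share was 12% (exact interval 4.53 to 24.3), an interval that includes the 21.0% of the whole list.

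The 20 strongest V centre peaks ranked 14 to 117 in the combined list. Their widths ran from 388 to 3615 bp with a median of 1016 bp, and 15 of them were 700 bp or wider. Of the 20, 12 lay between 9 and 12 Mb and 0 beyond 15 Mb. The bins of 1 Mb from 9 to 12 Mb held 95, 104 and 107 of all 899 V centre peaks. Beyond 15 Mb the bins held only 60 and 29, the last being cut by the window's end. For 10 of them another peak lay within 1000 bp. All 20 were overlapped by replicate 1, and 5 of them overlapped 2 separate replicate 1 peaks. Replicate 2 overlapped all 20 as well, but 15 of them were identical to its own peaks.

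The strongest, V:9730812-9732313, had q of 7.9e-74 in replicate 1 and 1.3e-125 in both replicate 2 and the combined list. The next, V:9342897-9344609, had q of 3.9e-74 in replicate 1 and 5.2e-121 in replicate 2 and combined. The strongest edge peak, V:6000182-6000876, had 2.0e-58 in replicate 1 and 5.6e-87 in the others. Each was a weaker call in replicate 1 than in replicate 2, on lists of unknown and possibly unequal depth. V:9546723-9547786 was 463 bp wide with q of 3.6e-47 in replicate 1, against 1064 bp and 4.7e-82 in the combined list. The narrowest of the 20, V:10897177-10897564, was 388 bp wide with q of 2.3e-62, and had 2.0e-38 in replicate 1. High strength did not always come with great width, although the 5 widest peaks all ranked within the first 292.

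Some of the widest combined peaks stood where replicate 1 listed 2 peaks. V:7727779-7730988, of 3210 bp and q of 1.4e-94, spanned the replicate 1 peaks V:7727794-7728766 with q of 1.9e-35 and V:7730198-7730908 with q of 6.8e-12. The widest peak, V:10714256-10717870, spanned V:10715087-10716143 with q of 7.6e-29 and V:10716354-10717668 with q of 7.5e-17. Of the 5 widest V centre peaks, 4 overlapped 2 replicate 1 peaks, although at V:13656239-13658205 the second of them, V:13658198-13658977, lay mostly outside the combined peak. Over all 899 this held for 15 peaks (1.67%), against 0.865% of the whole list.

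Recovery in the replicate lists, by an overlap of 1 bp or more, was partial in replicate 1 and nearly complete in replicate 2. Replicate 1 overlapped 497 of 899 V centre peaks (55.3%, exact Clopper-Pearson interval 52.0 to 58.6), against 54.3% of all combined peaks. Replicate 2 overlapped 892 (99.2%, 98.4 to 99.7), against 99.4% of all. The combined list repeated the start, end and q of a replicate 2 peak at 693 of the 899. Overlap with replicate 2, here and at the peaks named elsewhere, was thus largely set in advance and is not independent recovery. Both replicates overlapped 497, which is 55.3% against 54.3% of all, and 395 were overlapped by replicate 2 alone. Replicate 1 alone overlapped 0, which was likewise largely set in advance. Neither list overlapped 7 (0.779%), against 0.585% of all, and these 7 all lay between 11 and 12 Mb. The strongest of the 7 were V:11682850-11682854, V:11763091-11763096 and V:11821518-11821533, of 5, 6 and 16 bp and each with q of 0.000111. Next came V:11281485-11281629 with q of 0.000215 and V:11901632-11901794 with q of 0.000236, so all were weak calls. The shares were close to the background of the list, with 53.5% overlapped by replicate 1 on the remainder of V, 56.1% on X and 53.5% on I to IV.

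Replicate 1 recovery followed strength steeply. Across deciles by q, from strongest to weakest, it was 100%, 100%, 98.0%, 80.9%, 64.8%, 40.2%, 30.6%, 10.47%, 2.33% and 5% in the V centre. On chromosomes I to IV and X together it was 100%, 98.9%, 96.4%, 90.0%, 70.6%, 46.4%, 26.0%, 9.51%, 5.72% and 3.72%. Both curves fell between deciles 3 and 8, and their exact intervals overlapped in each of the 10 deciles. Among the 52 V centre peaks of 700 bp or wider replicate 1 overlapped 49, and across the 4 quartile classes of width, from narrow to wide, it overlapped 10.7%, 40%, 78.1% and 92.4%. Among V centre peaks of deciles 4 to 7 alone, where strength varied less, the same classes gave 37.8%, 49.4%, 63.6% and 66.7%. The intervals of the narrowest class, 23.8 to 53.5, and the widest, 49.8 to 80.9, overlap. Median -log10 q still rose across these classes, at 5.35, 6.27, 7.35 and 8.42. Width was therefore not separated from strength. Recovery by width was taken for V centre peaks only, so these shares cannot be set beside those of the whole list. By position, recovery in bins of 1 Mb ran from 50.0% to 65.0%.

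**Figure D4:**
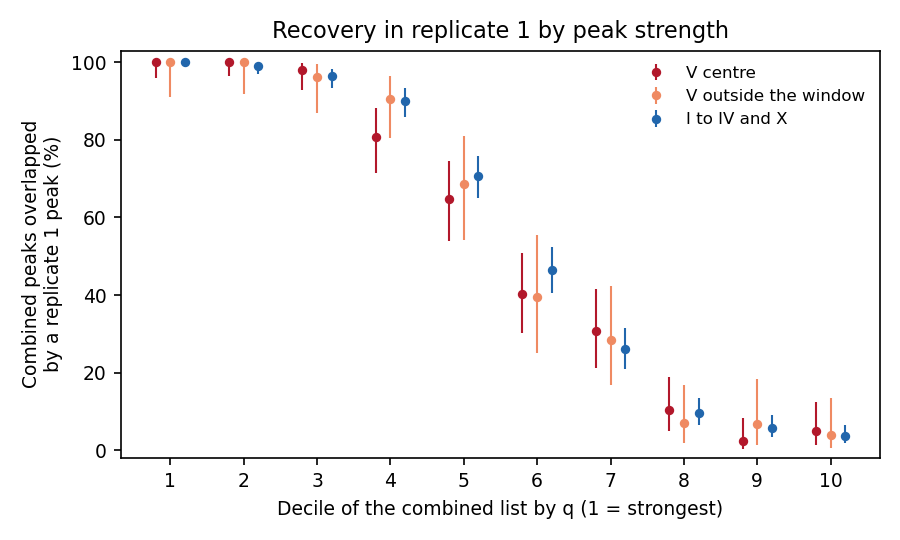
Share of combined peaks overlapped by a replicate 1 peak in percent (y axis) in each decile of the combined list by q (x axis, 1 = strongest), for the V centre, V outside the window, and chromosomes I to IV and X together; bars are exact 95% Clopper-Pearson intervals. V centre recovery was 100% in the strongest decile and 5% in the weakest.

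A few strong V centre peaks had no replicate 1 peak. The strongest was V:8667138-8668248, ranked 892 with q of 8.6e-14 and a width of 1111 bp, which lay in the group of 13 described above. It was followed by V:11344631-11345071 with q of 1.1e-10, V:6900338-6900628 with 2.2e-10, V:10802116-10802343 with 2.2e-10 and V:12041128-12041406 with 4.9e-10. All 5 overlapped a replicate 2 peak. Every stronger V centre peak overlapped at least 1 replicate 1 peak.

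At the 477 V centre peaks that overlapped 1 peak in each replicate, and no more, the median -log10 q was 6.33 in replicate 1 and 10.9 in replicate 2. The median ratio, replicate 1 over replicate 2, was 0.597 (0.588 to 0.612), with quartiles at 0.531 and 0.685. It was lower than 1 at 471 of the 477. Over the whole list the median ratio was 0.612 (n = 2277). Widths had medians of 295 bp in replicate 1 and 348 bp in replicate 2, with a median ratio of 0.879, and the replicate 1 peak was the narrower at 408, the wider at 60 and of equal width at 9. Spearman's rho between the replicates was 0.91 for -log10 q and 0.82 for width across these 477 peaks.

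The ratio was nearly equal in decile 1 and in deciles 2 and 3, where replicate 1 overlapped nearly all V centre peaks. Its median was 0.584 in the strongest decile, 0.579 in deciles 2 and 3, 0.588 in deciles 4 and 5 and 0.752 in the weaker deciles. In deciles 6 to 10 only 75 peaks entered, with median -log10 q of 4.02 in replicate 1 and 5.43 in replicate 2. The lowest V centre value listed in replicate 1 was 3.56. Weak peaks below that floor in replicate 1 could not enter, so 0.752 is not comparable with the other medians. The same limit reaches 0.588, which rests on 133 peaks with a median -log10 q of 4.77 in replicate 1. Replicate 1 overlapped only 80.9% and 64.8% of the V centre peaks in deciles 4 and 5. The highest ratio, 1.48, was at V:8460411-8460472, with q of 2.4e-06 in replicate 1 and 0.000162 in replicate 2. There the peak was 62 bp wide in the combined list and the replicate 1 peak ran from V:8460081 to V:8460469. At V:11087161-11087281 q was 7.6e-06 in replicate 1 and 7.8e-05 in replicate 2, a ratio of 1.25.

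**Figure D5:**
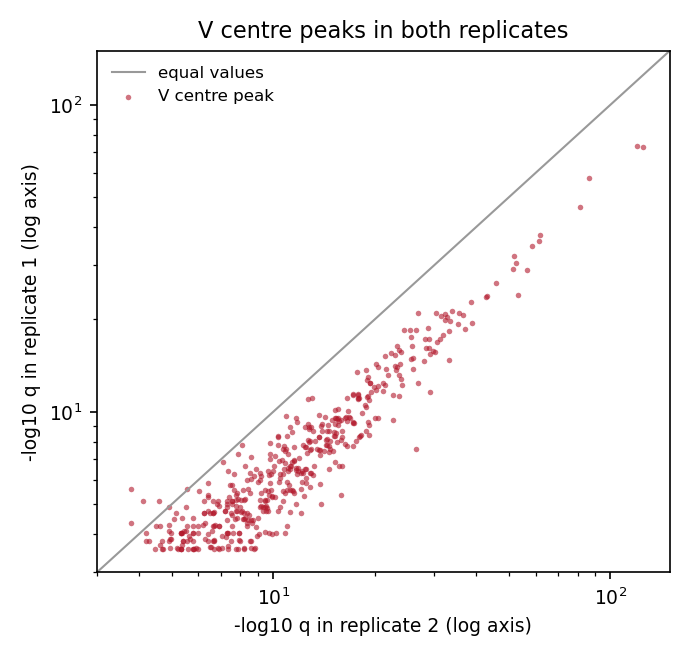
The -log10 q in replicate 1 (y axis, log scale) against that in replicate 2 (x axis, log scale) at V centre peaks overlapping 1 peak in each replicate; each point is a peak and the diagonal line marks equal values. Of 477 points 471 lie below the diagonal.

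The combined list in the V centre was largely a copy of replicate 2. Start, end and q were identical to a replicate 2 peak at 693 of 899 (77.1%), against 83.6% of the whole list, and identical to a replicate 1 peak at 0. The differing peaks lay in 2 blocks of 1 Mb. Outside these blocks all 692 peaks were identical. From 11 to 12 Mb 1 of 107 was identical, and from 13 to 14 Mb 0 of 100. Such blocks were not particular to the V centre. On V outside the window 0 of 60 were identical from 1 to 2 Mb, 0 of 78 from 5 to 6 Mb and 0 of 23 from 17 to 18 Mb. The identical share was 67.9% on the remainder of V, 78.4% on X and 92.0% on chromosomes I to IV.

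The 2 blocks of the V centre differed from replicate 2 in opposite directions. From 11 to 12 Mb, 99 of the 100 peaks that overlapped 1 replicate 2 peak were wider in the combined list and none was narrower. Their median width was 312 bp in the combined list and 278 bp in replicate 2. The larger shift of an edge had a median of 15 bp and reached 225 bp, while q was equal at 40. From 13 to 14 Mb, 98 of 98 were narrower, with medians of 301 bp in the combined list and 313.5 bp in replicate 2. There the larger shift had a median of 11 bp and reached 386 bp, and q was equal at 54. How the combined list was made is not given in the sources used here.

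Few replicate peaks of the window lacked a combined peak. Of the 518 replicate 1 peaks 9 overlapped none, against 13 (0.549%) in its whole list. Of the 897 replicate 2 peaks 6 overlapped none, against 21 (0.492%) in its whole list. The strongest replicate 1 peak among them was V:6220803-6230031, of 9229 bp and q of 7.1e-246, the strongest peak of replicate 1 as a whole, which overlapped no replicate 2 peak either. The combined list had V:6213360-6214298 before it, with 6504 bases between, and V:6230778-6231027 after it, with 746 bases between. Within 20000 bp of it lay 14 combined peaks, 7 replicate 1 peaks including itself, and 14 replicate 2 peaks. The other 8 replicate 1 peaks were weak, led by V:6657315-6657645 with q of 1.3e-05, V:10720952-10721303 with 0.000136 and V:12414561-12414660 with 0.000201. The strongest replicate 2 peak without a combined peak was V:13084318-13084567 with q of 1.8e-05, and the other 5 had larger q. At V:13012475-13012572 a replicate 1 peak overlapped the replicate 2 peak V:13012489-13012580, yet no combined peak overlapped either.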

How the data were processed

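JUN-1 binding in L1 larvae was taken from 3 deposited lists, 1 for each ChIP replicate and 1 combined. Per the file headers, the authors called peaks with PeakSeq on build WS180, and each deposited peak has a start, an end and a q-value. The aligner, read filters, PeakSeq version and thresholds, the use of the inputs and how the combined list was made were not given in the sources used here. No list holds read counts, so depth is unknown. Ranks were taken within a list, and ratios of -log10 q between lists were taken only at peaks overlapping one to one. Elsewhere q-values or medians of different lists are only printed side by side. Since depth is unknown, their difference is not a measure of binding.

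Width was end minus start plus 1, and a gap counted the bases between neighbouring peaks. Each chromosome was taken to run from its first to its last peak over the 3 lists. Intervals at 95% were exact Poisson for densities, Clopper-Pearson for shares and binomial order statistics for medians. By rule the text draws its named peaks from the 20 strongest, 5 widest and 5 narrowest V centre peaks, the 5 strongest without a replicate 1 overlap or in neither replicate, the largest group, and the strongest replicate peaks without a combined peak. Peaks at edges, gaps, other groups and ratio extremes were singled out after their values were seen. The members and lists were chosen with earlier results of these data known. Other overlap rules, strength limits, windows and lists were tried, and the scripts were tested on simulated data. No sequence is shown, because the genome of build WS180 was not used here. Computations used Python 3.11.15, numpy 2.4.6, pandas 2.3.3, scipy 1.17.1 and matplotlib 3.10.9.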

Additional observations from a re-analysis of the deposited data

How the results depend on the processing

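Of 53 recomputed values for 9 results, 29 stayed within the spread between replicates or the exact interval and 24 moved. That spread came from the replicate values themselves, and the combined list was largely a copy of replicate 2. It was thus largely set in advance that replicate 1 alone would move and replicate 2 alone would stay. The counts are therefore not a measure of robustness. Most of these results are single V centre values and have no direction. The density ratio to the rest of V stayed above 1, and the ratio of -log10 q below 1, in each alternative. Median width relative to the remainder of V was not recomputed here. It was 280 against 288 bp in the combined list and 296.5 against 292 bp in replicate 1. Taking either replicate's list alone gave 49.3 to 85.4 peaks per Mb, a median width of 274 to 296.5 bp, a median gap of 4325 to 9333 bp, a median -log10 q of 6.37 to 6.86, a density over the rest of V of 1.79 to 1.86, and a share overlapped of 55.3% to 99.2%. With the stronger 50% of the combined list these were 44.8 per Mb, 368.5 bp, 9820 bp, 11.5 and 1.85, replicate 1 and both replicates each overlapped 89.1%, and the ratio of -log10 q was 0.583. Counting peaks with gaps under 5000 bp as 1 gave 40.6 per Mb and a density over the rest of V of 1.40. That ratio was 1.91 for the central 50% of V and 1.65 with the window narrowed by 500000 bp at each side (both, as all alternatives for it, chosen after seeing the data). A reciprocal overlap of 50% gave 50.1% for replicate 1 and 49.8% for both. Using the stronger 50% of each replicate list gave 29.9% and 29.8%. The share identical to replicate 2 was 87.4% by q alone and 86.1% with edges within 10 bp. No paired analysis was possible because 1 group was precipitated and no test was made. Depth is unknown and limits what the weak peaks can show.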

Other observations

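Many V centre peaks shared a q-value exactly. Of the 899 peaks, 537 (59.7%) had the same q as at least 1 other V centre peak. In the whole list 2516 of 4277 peaks (58.8%) shared q with another listed peak. Within the remainder of V, X and chromosomes I to IV the shares were 40.7%, 26.1% and 42.7%. The most common value, 0.000376, was also the largest q in the V centre, and the 12 peaks that carried it were 128 to 163 bp wide. The 9 peaks with q of 0.000244 were 1 to 45 bp wide, and the 9 with q of 9.8e-05 were 85 to 176 bp wide.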
